A study of Mus musculus with 4 samples.

Results

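Polycomb and Trithorax genes encode the chromatin machinery that keeps developmental genes, the Hox clusters foremost, in a silent or an active state. A list of 33 such genes was followed in cells derived from mouse embryonic stem (ES) cells and sorted into 2 fractions: subunits of the Polycomb repressive complexes PRC2 and PRC1, the demethylases that remove the PRC2 mark, and subunits of the Trithorax-type methyltransferase complexes. The genes were chosen by name and function. Of the 33, 32 had at least 1 probe on the array, 47 probes in all, and 30 gave a signal well above background on all 4 arrays and were tested, among 23548 features tested in all. No probe matched Kmt2a, and Cbx7 and Cbx8 were too dim to test.

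The line was EB5, in which the fluorescent protein Venus reports Hoxb6, a Hox gene active in mesoderm of the trunk, and it was differentiated over 6 days on a layer of OP9 stromal cells. Cells positive for Flk-1, the receptor that Kdr encodes and that marks mesoderm with vascular and blood potential, were sorted into a Flk-1+Hoxb6-Venus+ and a Flk-1+Hoxb6-Venus- fraction, with 2 one-colour Agilent arrays for each, here called Venus-positive and Venus-negative. Both fractions share the line, the reporter, the feeder layer and the Flk-1 gate, and whether the reporter line is 1 clone, or whether the 2 replicates came from separate cultures, is not stated. The p-values thus reflect the spread between these samples alone, and that spread may be technical.

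Each array had 50.7% to 53.0% of its non-control spots well above background, and 0 saturated. The 4 arrays shared 1 slide and 1 scan. The row on the slide followed the replicate number, and the column on the slide followed the fraction, so that column and fraction cannot be told apart. The reporter gene Hoxb6 had a log2 change of 1.01 ± 0.16 (SE) between the fractions (limma adjusted p = 0.0716), and Kdr one of 0.44 ± 0.11. All 10 markers of Flk-1+ vascular mesoderm were tested. At an adjusted p under 0.05 in limma 1 of them, Tek (1.53 ± 0.17), was higher in Venus-positive cells. Of the 10 log2 changes 7 were positive, up to 1.56 for Cdh5, and 3 negative, down to -1.50 for Etv2. At an unadjusted p under 0.05 in limma 6 were higher and 1, Etv2, lower. All features gave 12.3% higher and 11.4% lower at that threshold.

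PRC2 places methyl groups on lysine residues of the histone H3 tail (the H3K27 mark) through its catalytic subunit, Ezh2 or the related Ezh1. Canonical PRC1 reads this mark through a chromobox protein and compacts chromatin, while variant PRC1 complexes, each built on another PCGF protein, place ubiquitin on histone H2A. Trithorax-type complexes oppose them by methylating H3K4, and the demethylases Kdm6a and Kdm6b remove the PRC2 mark. In the mesoderm the balance between the 2 systems is known for setting the order and timing of Hox gene activation along the body axis.

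Of the 30 genes tested, 0 passed the threshold in either direction (limma, Benjamini-Hochberg adjusted p under 0.05 over all features), against 0.777% of all features that were higher and 1.36% that were lower in Venus-positive cells. The largest differences were those of Phf19, an accessory subunit of PRC2 (1.65-fold), and Pcgf5, a subunit of variant PRC1 (1.44-fold), with adjusted p-values of 0.103 and 0.0959. In bulk RNA, fewer cells that express a gene and less RNA per cell cannot be told apart.

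The median absolute log2 change was 0.168 over the 30 genes and 0.228 over all features. An absolute log2 change under 0.5 was seen for 28 of the 30 (93.3%), against 77.0% of all features, and 0 of the 30 reached 1, against 8.03% of all features. All 30 were well above background on all 4 arrays, with a median signal at percentile 69.2 of the features. Of the 23548 features, 21612 remained when all 4 arrays were required, and 9622 were probes without a symbol. The part of signal level and filter in these shares was not tested. The 95% interval of the change lay within 1 log2 unit either way, a factor of 2, for 28 of the 30 genes (70.8% of all features); the exceptions were Phf19, with an interval from 0.31 to 1.13, and Cbx6, whose replicates spread widely, from -0.69 to 1.04. For 9 genes the interval lay within 0.5 either way. The signed median was 0.09 over the 30 genes and 0.0029 over all features, and 18 of the log2 changes were positive and 12 negative.

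**Figure D1:**
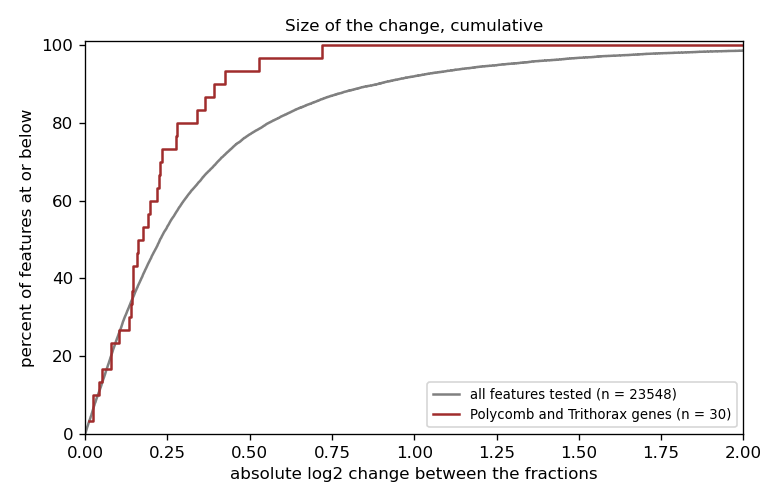
Cumulative distribution of the absolute log2 change between the fractions (horizontal axis) for the 30 Polycomb and Trithorax genes tested and for all 23548 features tested (vertical axis, percent of features at or below that size). The horizontal axis stops at 2. The line of the 30 genes is complete at 0.72, the value of Phf19, whereas 8.03% of all features lie at 1 or beyond.

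At an unadjusted p under 0.05 in limma, 5 of the 30 genes (16.7%) had higher and 0 had lower values in Venus-positive cells, where all features gave 12.3% higher and 11.4% lower. These were Jarid2, Phf19, Bmi1, Pcgf5 and Phc2. Both Venus-positive arrays lay above both Venus-negative arrays for 10 genes (33.3%) and below them for 7 (23.3%), close to the 29.1% and 28.4% of all features. Within each row of the slide the Venus-positive minus Venus-negative difference had the same sign in both rows for 24 of the 30 genes (80.0%), 15 positive and 9 negative, against 76.6% of all features. With the replicate number, and hence the slide row, as a block in the fit, 0 of the 30 genes passed. At an unadjusted p under 0.05 in limma 7 were then higher and 0 lower, Rnf2 and Phc3 beside the 5 named. The same fit gave 16.9% of all features higher and 15.4% lower.

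**Figure D2:**
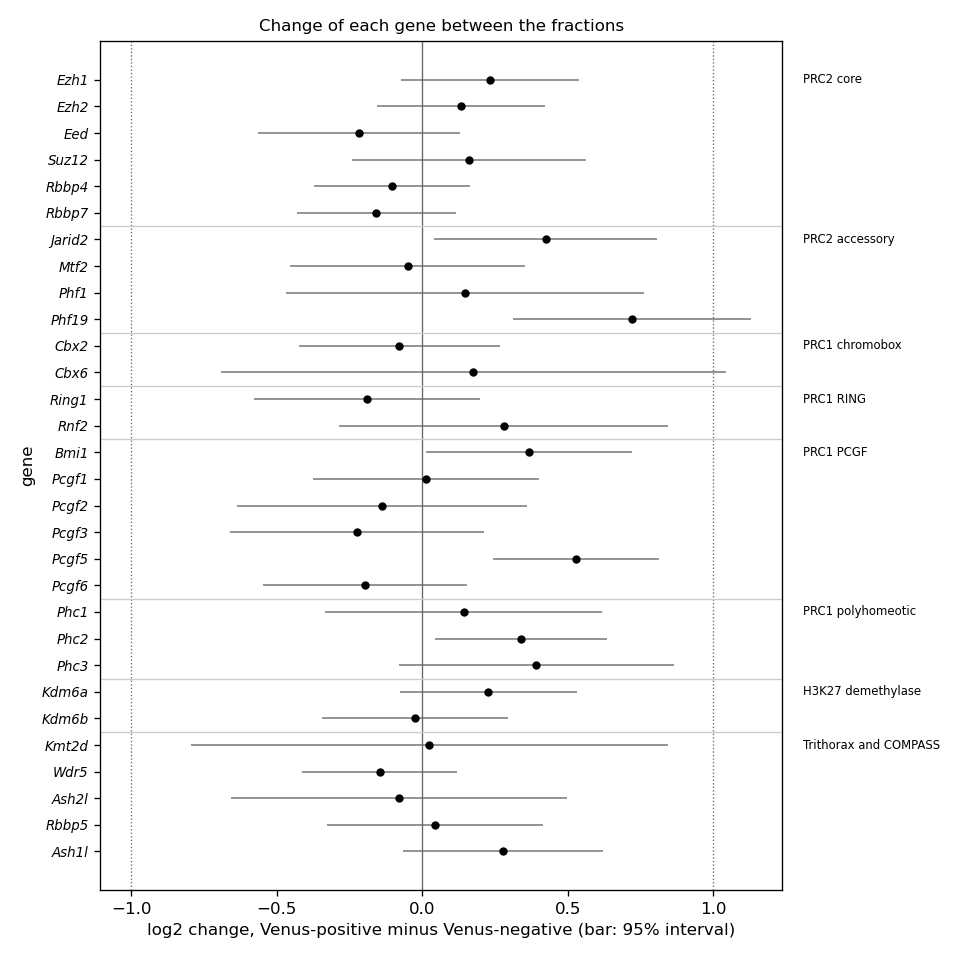
Log2 change of each of the 30 genes, Venus-positive minus Venus-negative, with its 95% interval (bars), ordered by complex. Dotted lines mark a change of 1 log2 unit either way; the intervals of Jarid2, Phf19, Bmi1, Pcgf5 and Phc2 lie above 0, before any adjustment for the number of features.

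The promoter windows of 3 of these genes are shown as examples of the sequence class. For 28 of the 33 genes a table of promoter sequences (build GRCm38.p6) held a start site, 34 windows in all. The 250 bases before the start were searched. Each of the 3 lies on the plus strand and ends just before the first annotated base of its gene: Pcgf5, the gene with the lowest p-value, at chr19:36348079-36348328; Bmi1, for which 2 probes gave like values, at chr2:18676768-18677017; and Suz12, 1 of 2 genes with an E2F match, at chr11:79992856-79993105. Capitals mark matches to the motifs searched on both strands, which were TTTCCCGC or TTTGGCGC (E2F), CCAAT and the E-box CACGTG; no match overlaps another in these 3.
Pcgf5: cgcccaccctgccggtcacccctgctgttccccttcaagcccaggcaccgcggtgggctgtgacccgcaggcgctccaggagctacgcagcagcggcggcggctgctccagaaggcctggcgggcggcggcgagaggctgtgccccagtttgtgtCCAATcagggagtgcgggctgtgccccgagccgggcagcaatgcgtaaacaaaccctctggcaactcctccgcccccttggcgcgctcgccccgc
Bmi1: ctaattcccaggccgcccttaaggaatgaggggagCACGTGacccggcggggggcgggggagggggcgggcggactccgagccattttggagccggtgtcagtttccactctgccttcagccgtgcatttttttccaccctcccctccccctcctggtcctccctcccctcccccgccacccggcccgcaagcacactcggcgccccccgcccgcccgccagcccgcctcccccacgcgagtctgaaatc
Suz12: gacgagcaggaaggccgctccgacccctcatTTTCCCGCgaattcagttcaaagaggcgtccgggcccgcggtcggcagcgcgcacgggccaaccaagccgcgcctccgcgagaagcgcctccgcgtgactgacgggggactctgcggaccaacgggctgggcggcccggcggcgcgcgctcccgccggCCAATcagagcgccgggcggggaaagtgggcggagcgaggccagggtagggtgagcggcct
CpG is the dinucleotide that is dense in CpG islands, where Polycomb and Trithorax complexes themselves bind. The 34 windows held from 1 to 37 CpG with a median of 21.5, against a median of 6 over the 32841 windows of all genes in the table, and a median GC content of 65.4% against 52.4%. An E2F match was present in 2 windows (5.88%), those of Phf19 and Suz12, against 1.30% of all windows, an E-box in 8 (23.5%) against 6.02%, and a CCAAT match in 11 (32.4%) against 33.9%. The 2 genes with an E2F match had log2 changes of 0.72 (Phf19) and 0.16 (Suz12). A match describes these letters only.

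The PRC2 core consists of a catalytic subunit, Ezh1 or Ezh2, the scaffold Suz12, the mark-binding subunit Eed and the histone-binding proteins Rbbp4 and Rbbp7. All 6 were bright, and their log2 changes ran from -0.22 to 0.23 with a median of 0.01. Signals are given below as log2 relative to the 75th percentile of the array, a scale on which different genes are not comparable. Ezh1 stood at 3.82 and 3.68 on the Venus-negative arrays and at 4.003 and 3.96 on the Venus-positive arrays. The groups did not overlap, but the log2 change of 0.23 ± 0.11 (SE, n = 2 a group) did not pass (limma adjusted p = 0.296). The other 2 Ezh1 probes gave 0.26 and 0.29. Ezh2, the catalytic subunit that prevails in dividing cells, had a log2 change of 0.13 ± 0.10 (limma adjusted p = 0.494), with a 95% interval from -0.16 to 0.42.

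Eed and Rbbp7 had values on the other side of 0. Eed gave 4.31 and 4.12 in Venus-negative and 4.05 and 3.94 in Venus-positive cells. Both Venus-positive arrays were lower, with a log2 change of -0.22 ± 0.12. Rbbp7 gave 5.74 and 5.80 against 5.60 and 5.62, again without overlap, and a log2 change of -0.16 ± 0.10. Suz12, at 2.38 and 2.20 against 2.57 and 2.33, overlapped between the groups (0.16 ± 0.14). The adjusted p-values of these 3 genes in limma lay between 0.364 and 0.553. Rbbp4 had a log2 change of -0.10 ± 0.09 on its brightest probe, whereas a second probe gave 0.27 ± 0.31, so that its direction depends on the probe.

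The accessory subunits of PRC2 include the Polycomb-like proteins Phf1, Mtf2 and Phf19, which help the complex bind chromatin, and Jarid2, a jumonji-family protein without demethylase activity that guides PRC2 to its targets. Phf19 had the largest difference of all 30 genes. It stood at -1.003 and -1.26 in Venus-negative and at -0.33 and -0.49 in Venus-positive cells. The gap between the groups exceeded the spread within each, and the log2 change was 0.72 ± 0.14, but the limma adjusted p was 0.103. Jarid2 gave 2.69 and 2.42 against 2.99 and 2.97, also without overlap, with a log2 change of 0.42 ± 0.13 (limma adjusted p = 0.184).

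The 2 related Polycomb-like genes gave no such separation. Mtf2 stood at 3.21 and 2.91 in Venus-negative and 3.03 and 2.99 in Venus-positive cells. Its Venus-positive values lay between those of the Venus-negative arrays, and its log2 change of -0.05 ± 0.14 was 0.02 with arrays centred on their median. Phf1, at -0.43 and -0.11 against -0.34 and 0.10, followed the replicate number more than the fraction (0.15 ± 0.22). The log2 signal of Phf19 minus that of Mtf2 was 0.77 ± 0.07 (SE) higher in Venus-positive cells, and 0.57 higher with model-based background correction (normexp). The exact two-sided permutation p was 0.333, the smallest that 2 against 2 arrays allow, so that 0 of the 11 pairs of related genes compared could pass (Benjamini-Hochberg adjusted p = 0.407 for this pair). Phf19 minus Phf1 was 0.57 ± 0.42 higher in Venus-positive cells, with overlap between the groups (exact permutation p = 0.667).

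**Figure D3:**
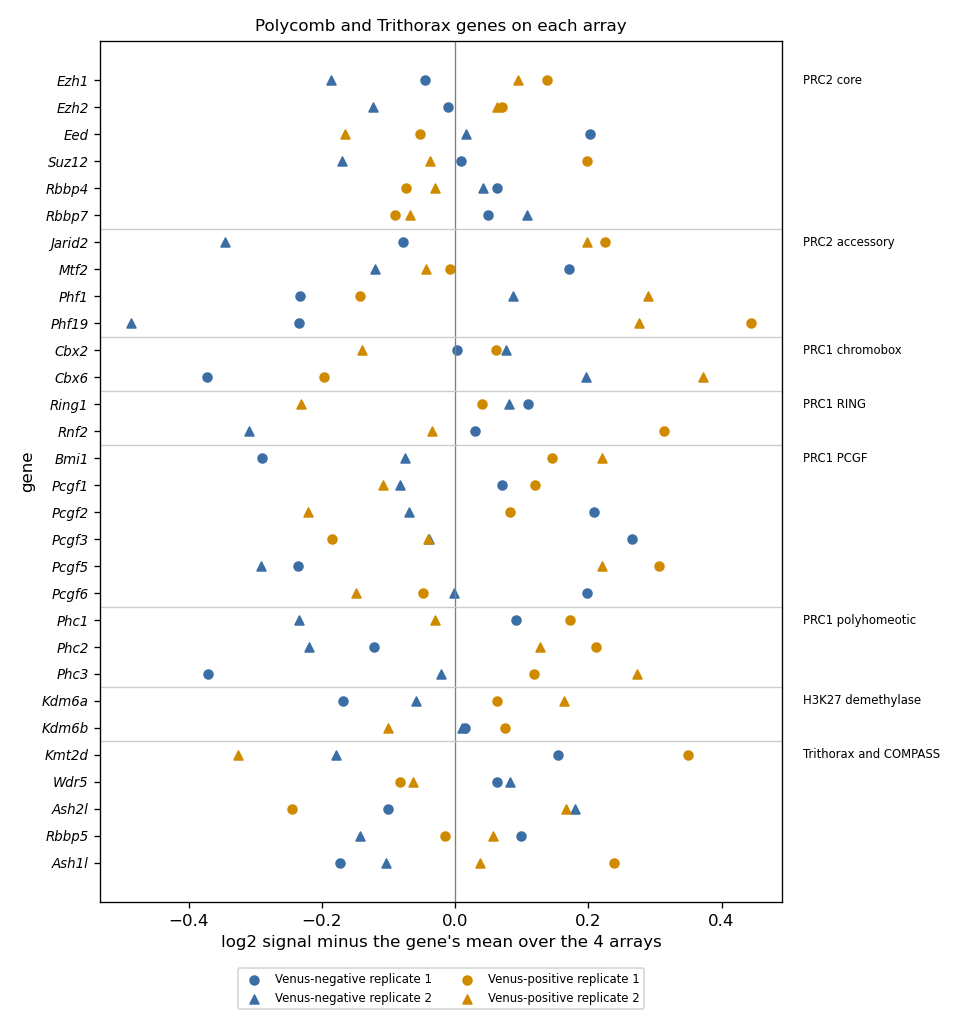
Log2 signal of each of the 30 genes on each of the 4 arrays, as the distance from the gene's own mean (horizontal axis); colour gives the fraction and symbol the replicate. For Phf19, Pcgf5, Jarid2, Bmi1 and Phc2 both Venus-positive points lie to the right of both Venus-negative points, while for Cbx6 and Phf1 the points separate by replicate.

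Canonical PRC1 carries a chromobox protein (Cbx2, Cbx6, Cbx7 or Cbx8 in this list) and a polyhomeotic protein beside the RING-type ubiquitin ligases Ring1 and Rnf2. Cbx2 stood at 2.31 and 2.38 in Venus-negative and at 2.37 and 2.17 in Venus-positive cells, with overlap and a log2 change of -0.08 ± 0.12. Cbx6 gave 0.28 and 0.85 against 0.46 and 1.02. Its replicates differed by more than its fractions, while within each slide row the difference was 0.18. Cbx7, the chromobox protein that prevails in pluripotent ES cells, was not well above background on any array, with values of -6.87, -7.04, -7.17 and -7.32, which are too dim to compare. Cbx8 was well above background on 1 array of each group and gave -4.31 and -4.44 against -4.77 and -4.55. No fold is given for either.

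Ring1 and Rnf2, the ligases shared by all PRC1 complexes, lay on opposite sides of 0. Rnf2 gave 2.49 and 2.15 in Venus-negative and 2.77 and 2.43 in Venus-positive cells, and Ring1 gave -1.39 and -1.42 against -1.46 and -1.73. Their log2 changes were 0.28 ± 0.20 and -0.19 ± 0.14 (limma adjusted p = 0.465 and 0.467). Rnf2 minus Ring1 was 0.47 ± 0.16 higher on the log2 scale in Venus-positive cells (exact permutation p = 0.333, adjusted p = 0.407).

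The 3 polyhomeotic genes, whose proteins join PRC1 complexes into larger assemblies, all had positive log2 changes. Phc2 stood at 5.72 and 5.62 in Venus-negative and at 6.05 and 5.97 in Venus-positive cells. Both Venus-positive arrays were higher, by 0.33 in slide row 1 and 0.35 in slide row 2, and the log2 change was 0.34 ± 0.10 (limma adjusted p = 0.177). Phc3 gave -1.91 and -1.56 against -1.42 and -1.26, without overlap and with a log2 change of 0.39 ± 0.17 (limma adjusted p = 0.269). Phc1, the family member best known from ES cells, gave 1.67 and 1.35 against 1.75 and 1.55, with overlap (0.14 ± 0.17) and a value of -0.02 without Venus-negative replicate 2.

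The PCGF proteins decide which PRC1 complex a RING ligase joins. Bmi1 and Pcgf2 belong to canonical PRC1, Pcgf1, Pcgf3, Pcgf5 and Pcgf6 to variant complexes. Pcgf5 stood at 3.90 and 3.84 in Venus-negative and at 4.44 and 4.35 in Venus-positive cells. The spread within each fraction was smaller than the gap, and the difference was 0.54 in slide row 1 and 0.51 in slide row 2. The log2 change was 0.53 ± 0.10 with a 95% interval from 0.24 to 0.81, and a second probe gave 0.62 ± 0.12. Its limma adjusted p was 0.0959. Pcgf5 was the 1 gene of the 30 to pass under an alternative: when the variance prior was allowed to depend on signal (adjusted p = 0.0295, where 3.10% of all features were called higher) and with normexp (adjusted p = 0.0482, where 2.51% were). It did not pass under the other alternatives, with adjusted p-values from 0.0738 to 0.348.

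Bmi1, known from the self-renewal of blood stem cells, gave 0.78 and 0.996 in Venus-negative and 1.22 and 1.29 in Venus-positive cells. The groups did not overlap, and the log2 change was 0.37 ± 0.12 on its brightest probe (limma adjusted p = 0.201) and 0.46 ± 0.12 on its second. Pcgf3, which forms the same kind of variant complex as Pcgf5, gave -2.45 and -2.75 against -2.90 and -2.75 (-0.23 ± 0.15). Its second Venus-negative and second Venus-positive value were equal to 2 decimals, so the gap rests on the first replicates. Pcgf6, a subunit of the variant complex that contains Mga, gave 1.81 and 1.62 against 1.57 and 1.47 (-0.20 ± 0.12), without overlap. The limma adjusted p of both was over 0.4 (0.447 and 0.410).

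The remaining PCGF genes, Pcgf1 and Pcgf2, overlapped between the fractions. Pcgf1 had a log2 change of 0.01 ± 0.14, and Pcgf2, the relative of Bmi1, one of -0.14 ± 0.18. Pcgf5 minus Pcgf3 was 0.75 ± 0.17 higher on the log2 scale in Venus-positive cells. Pcgf2 minus Bmi1 was 0.50 ± 0.31 lower there, a change of -0.50. Both had an exact permutation p of 0.333 (adjusted p = 0.407). Ezh2 minus Ezh1 moved by only -0.10 ± 0.02, with the same exact p.

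Both demethylases of the PRC2 mark were measured. Kdm6a, the X-linked enzyme also found in the Kmt2d complex, gave -0.17 and -0.06 in Venus-negative and 0.06 and 0.16 in Venus-positive cells. The groups did not overlap and the difference was alike in both slide rows (0.23 and 0.22), with a log2 change of 0.23 ± 0.11 (limma adjusted p = 0.304). Kdm6b, the inducible enzyme, gave 3.83 and 3.83 against 3.89 and 3.71, with a log2 change of -0.02 ± 0.11 that was 0.04 with arrays centred on their median and 0.03 with normexp.

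Among the Trithorax-type genes, Kmt2d is a methyltransferase of enhancers, Wdr5, Ash2l and Rbbp5 are core subunits shared by all complexes of this kind, and Ash1l is a methyltransferase that acts outside them. Ash1l gave -0.86 and -0.79 in Venus-negative and -0.45 and -0.65 in Venus-positive cells. Its groups did not overlap (0.28 ± 0.12, limma adjusted p = 0.278). Wdr5 had close replicates, at 4.26 and 4.28 against 4.12 and 4.13, a log2 change of -0.15 ± 0.09 (limma adjusted p = 0.420). Ash2l gave 4.67 and 4.96 against 4.53 and 4.94, and Rbbp5 gave -0.33 and -0.57 against -0.45 and -0.37. Both overlapped, with log2 changes of -0.08 ± 0.20 and 0.04 ± 0.13. Kmt2d had a log2 change of 0.02 ± 0.29 on its brightest probe and of -0.08 as the mean over its 3 probes.

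Several genes had more than 1 usable probe. Of 13 further probes well above background on all 4 arrays, for 10 genes, 13 lay within 0.5 log2 units of the brightest probe in their log2 change. The largest gap was 0.369, for Rbbp4. A further probe of Phc3 was not well above background on any array.

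**Figure D4:**
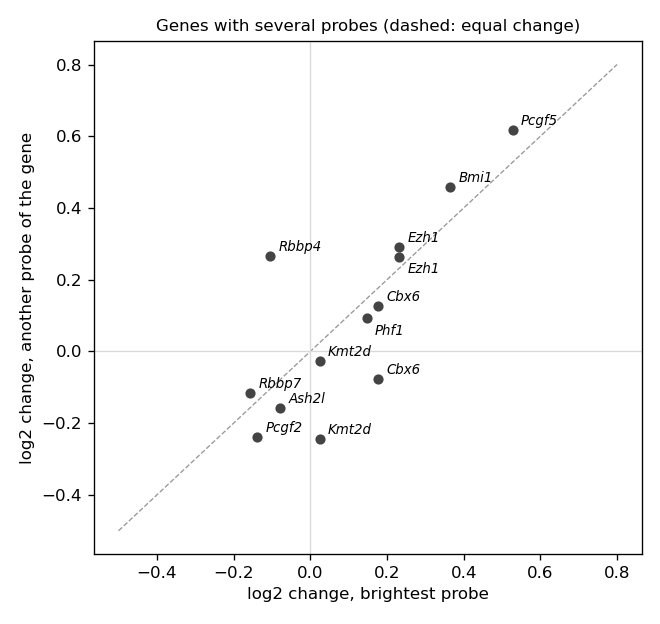
Log2 change measured by each of 13 further probes (vertical axis) against that of the brightest probe of the same gene (horizontal axis), for 10 genes; the dashed line marks equal change. The points of Pcgf5, Bmi1 and Ezh1 lie close to the line, and Rbbp4 lies farthest from it.

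Other subunits and regulators of the same complexes were examined from lists drawn up by function. Of 25 other PRC1 factors 21 were tested, and of 9 genes of histone H2A deubiquitinases and their partners 9. Of 18 other COMPASS (Trithorax-type methyltransferase) factors 16 were tested, and of 6 other PRC2 factors 5. Of all these genes 0 passed in limma in either direction. At an unadjusted p under 0.05 these 4 lists gave 3, 1, 0 and 2 genes higher and 0, 1, 0 and 0 lower. All features gave 12.3% higher and 11.4% lower at that threshold. Their median log2 changes were 0.06, 0.01, 0.13 and 0.06. Lcorl, a paralog of the PRC2-associated protein Lcor, came closest to passing: it stood at -0.04 and -0.11 in Venus-negative and at 1.26 and 0.97 in Venus-positive cells, a log2 change of 1.19 ± 0.14 (limma adjusted p = 0.0539). Lcorl passed with median centring, normexp, all 4 arrays required above background, the signal-dependent prior, the replicate block and the mean over probes. Lcor itself had a change of 0.80 ± 0.28, Asxl3, a partner of the deubiquitinase Bap1, one of -0.85 ± 0.16, and Foxk1, a forkhead protein that binds the same complex, one of 0.43 ± 0.13. The limma adjusted p-values of these 3 were 0.206, 0.0952 and 0.180. The 2 largest changes among the PRC1 factors were those of Scml4 (-0.51 ± 0.56, well above background on 1 of 2 Venus-positive arrays) and L3mbtl3 (0.38 ± 0.11), and among the COMPASS factors those of Kmt2e (0.23 ± 0.18) and Paxip1 (0.23 ± 0.23).

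Markers of other cell types and of the cell cycle were measured on the same arrays. The summed level of 7 primitive streak markers (linear signal relative to the 75th percentile) was 36.8 to 43.3 in Venus-negative and 10.3 to 14.0 in Venus-positive cells. T, the brightest of the 7, weighs heavily in this sum and had a log2 change of -0.73 ± 0.25 (limma adjusted p = 0.202). Of the 7, 5 were lower at an adjusted p under 0.05 in limma. Their log2 changes ran from -4.89 for Tdgf1 to -6.22 for Mesp1, which was well above background on 1 of 2 Venus-positive arrays. For 17 tested G2/M genes of 18 the summed level was 175 to 239 against 308 to 314. Of their log2 changes 17 of 17 were positive, and 0 passed in limma (10 higher and 0 lower at an unadjusted p under 0.05). For 16 tested S-phase genes of 17 the summed level was 660 to 674 against 588 to 596. Of these 16 changes 4 were positive and 12 negative, with a median of -0.19, and 0 passed in limma (1 higher and 3 lower at an unadjusted p under 0.05). All features gave 12.3% higher and 11.4% lower at that threshold. For 10 tested OP9 stromal markers of 11 the summed level was 56.7 to 58.9 against 40.2 to 51.4, with Dcn too dim to test. Col1a2, the brightest of them, weighs heavily in this sum and had a log2 change of -0.28 ± 0.18. Of the 10 changes 3 were positive and 7 negative, with a median of -0.33. The positive ones were those of Col3a1 (0.10), Cebpa (0.08) and Postn (1.61 ± 0.65). Postn was well above background on 2 Venus-positive and 0 Venus-negative arrays, so its change rests on values at background. None of the stromal markers passed in limma (0 higher and 2 lower at an unadjusted p under 0.05). For 9 undifferentiated ES cell markers the summed level was 72.6 to 99.2 against 36.3 to 52.2. Of the 9 ES cell markers 7 had negative log2 changes, with a median of -0.32, from -2.47 for Dppa5a, a bright marker that weighs heavily in the sum, to 0.51 for Klf4, and 0 passed in limma (0 higher and 2 lower at an unadjusted p under 0.05). For 5 tested endoderm markers of 8 it was 8.86 to 8.96 against 12.3 to 13.9, with Afp, Ttr and Apoa1 too dim. Only Sox17 among these 5, which endothelial cells also express, had a positive log2 change (1.35 ± 0.24), and the other 4 ranged from -0.80 to -0.14. The part of these differences in the values of the Polycomb and Trithorax genes was not tested.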

How the data were processed

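Flk-1+ cells of the 2 Hoxb6-Venus fractions were each measured on 2 one-colour (Cy3) Agilent arrays of 62976 spots. The deposited scanner tables hold intensity values from Agilent Feature Extraction 10.10.1.1, background-subtracted and detrended within each array, per the file headers; the authors' value table holds the same intensity values, each array multiplied by a constant (1.98 to 2.44), with column medians of 38.1 to 42.3, unit and direction as in the scanner tables and the choice of constants not given in the sources used here. Array precision is limited by the number of arrays.

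Control spots and outlier spots (152 to 196 per array) were left out, log2 processed signals were centred on each array's 75th percentile, spots of a probe averaged, and the 27901 probes kept that exceeded background clearly on both arrays of either fraction. Accessions without version were matched to symbols through a RefSeq table (GRCm38.p6): 27235 probes had 1 symbol and 28446 none. The probe with the highest mean log2 signal represented a gene, leaving 13926 genes and 9622 unnamed probes. Tests used lmFit and eBayes of limma 3.58.1, run in R 4.3.3 with data.table (version 1.17.8), Benjamini-Hochberg adjusted over all features, threshold 0.05; the procedure was tested on simulated data. SE is the moderated standard error; for differences between 2 genes it is from the pooled SD.

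The genes and lists were chosen with earlier results of these data known. All 33 genes are named; array values are given for up to 4 genes of each complex with the largest change and for dim genes, and the 2 largest changes of each related list are named. Same-numbered replicates deviated together (r = 0.414 across features), but the labels do not say that the number marks a batch. Alternatives were other array scalings, background corrections, filters, variance priors, probe rules, the authors' value table, the block and leaving out each array. The files hold no mean spot signal, so normexp (offset 50) was run on the median spot signal, a choice made after seeing the data. Results for 1 list of marker genes are not reported here.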

Additional observations from a re-analysis of the deposited data

How the results depend on the processing

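Each fraction had 2 arrays, which limits the precision of every change. Of the 30 genes, 18 kept the sign of their change under every alternative run (12 higher, 6 lower) and 12 did not. The signal-dependent prior, the replicate block and the changed filters left each log2 change as it was, so these could not turn a sign. Members called were 0 in every alternative but 2, normexp and the signal-dependent prior, with 1 each (Pcgf5).

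The 503 features called became 1285 with normexp, 1654 with the signal-dependent variance prior, 934 with the replicate block and 0 with no filter on dim probes; without 1 array the count was 0 in each of the 4 cases (range 0 to 0). Centred on the median, arrays gave 351 features higher and 375 lower, against 183 and 320. Genes called in the related lists were 0 in the reported fit, 2 with median centring, 4 with normexp, 3 with the variance prior, 3 with the replicate block, 1 with all 4 arrays required above background and 1 with the mean over probes. The block changed no call at the adjusted threshold among the 30 genes. The median log2 change of the 30 genes, 0.088, was 0.157 with median centring, 0.0336 with no filter on dim probes (where Cbx7 and Cbx8 entered) and 0.0204 to 0.130 without 1 array. Leaving out Venus-negative replicate 1 gave the 0.130, leaving out Venus-negative replicate 2 the 0.0204. Over all features the median log2 change was 0.0029 in the reported fit and 0.0719 with median centring. It was -0.168 with no filter on dim probes and -0.021 to 0.030 without 1 array.

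The sign of the log2 change turned with median centring for Mtf2 (0.018) and Kdm6b (0.044), with normexp for Kdm6b (0.033), and with the mean over probes for Rbbp4 (0.080) and Kmt2d (-0.082). Without 1 array the change ranged from -0.28 to 0.13 for Ash2l, -0.18 to 0.022 for Cbx2, -0.11 to 0.46 for Cbx6, -0.11 to 0.063 for Kdm6b, -0.31 to 0.36 for Kmt2d, -0.20 to 0.096 for Mtf2, -0.10 to 0.13 for Pcgf1, -0.29 to 0.013 for Pcgf2, -0.021 to 0.30 for Phc1, -0.070 to 0.36 for Phf1 and -0.078 to 0.16 for Rbbp5. Median centring changes 1 constant per array, so it moved every log2 change by the same 0.069. For the other alternatives the cause was not tested.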

Other observations

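Further chromatin genes, outside the lists of Polycomb and Trithorax-type methyltransferase genes, were measured. Smarcd3 and Dpf1 had larger absolute log2 changes than any gene tested in those lists. Of 22 subunits of the BAF chromatin remodelling complex, all measured, 0 passed in limma in either direction (2 higher and 3 lower at an unadjusted p under 0.05). The 2 with the largest change are alternative subunits known from heart, muscle or neural cells. Smarcd3 stood at -1.03 and -0.51 in Venus-negative and at -2.73 and -2.39 in Venus-positive cells, a log2 change of -1.79 ± 0.24 (limma adjusted p = 0.0618). Dpf1 gave -1.21 and -0.72 against -2.90 and -2.57, a log2 change of -1.77 ± 0.23 (limma adjusted p = 0.0605). Both passed with normexp, the signal-dependent prior and the replicate block, Dpf1 also with median centring, and the median over the 22 subunits was -0.06.

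Of 13 other histone demethylases, 0 passed in limma (1 higher and 1 lower at an unadjusted p under 0.05), with Kdm7a at -0.37 ± 0.11 and Kdm4c at 0.29 ± 0.10. Of 17 other histone methyltransferases tested, 0 passed in limma (3 higher and 0 lower at an unadjusted p under 0.05), with Nsd2, an H3K36 methyltransferase, at 0.67 ± 0.18 and Kmt5b, an H4K20 methyltransferase, at 0.43 ± 0.13. The medians of these demethylases and methyltransferases were 0.12 and 0.07. Over all features 12.3% were higher and 11.4% lower at an unadjusted p under 0.05 in limma.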
